A study of Mus musculus with 20 samples.

Results

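The control arrays of this study describe natural killer (NK) cells from the spleens of male C57BL/6 mice that were given water by gavage each day for 14 days. They were chosen by label alone, and are 5 of the 20 arrays of the series, with a separate donor mouse behind each one. The remaining arrays come from male C57BL/6 mice given ptaquiloside (5.3 mg/kg), ptaquiloside with selenium (1.3 mg/kg), or selenium, and they enter below only as the arrays that shared a slide with a control array. NK cells were collected untouched, that is, the other spleen cells were labelled and held back on magnetic columns, so any cell that escaped the columns contributes RNA. Amplified RNA carrying the dye Cy3 was read on a one-colour Agilent whole-genome mouse array of 60-base probes. No treatment contrast is made, and with 1 group of arrays no test was run, so all values are a description of these 5 mice.

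NK cells are lymphocytes of the innate immune system that kill infected, transformed or stressed cells without prior immunisation. Killing is set by a balance of activating receptors, which signal through small membrane adaptors and kinases, and inhibitory receptors, which mostly recognise MHC class I molecules on healthy cells. Once released, the contents of cytotoxic granules enter the target: perforin forms pores and granzymes, a family of serine proteases, start its death. NK cells also secrete interferon gamma and chemokines, and they depend on interleukin 15 and on the transcription factors T-bet and Eomes. In the mouse spleen they are a small share of all cells, beside B cells, T cells, macrophages, granulocytes and erythroid cells.

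Each level below is the log2 processed signal minus the 75th percentile of the array, so that 0 marks a signal at that percentile and 1 unit is a doubling. The percentile itself lay between 107 and 121 scanner units on the control arrays, 54.3% to 60.8% of the spots were well above background, and 59 to 152 spots per array were left out as outliers. Array and array correlated at 0.967 to 0.985 across probes, which are not independent of each other. The lowest value was between controls 2 and 3. In the header of the authors' deposited table of processed values, a control array (mouse 1) is named as holding many outliers and as replaced by the mean of the others. That table was not used here, the scanner file of control 1 held 69 outlier spots, and values without it are given where they matter. The first principal component held 54.2% of the variance between arrays, and separated control 2 (0.69) and control 1 (0.37) from controls 3, 4 and 5 (-0.36, -0.40 and -0.30). Slide 1 carried mouse 1 of every group, slide 2 mouse 2, and so on, and the control always had the same place on the slide, so donor mouse, slide and array cannot be told apart within the group. The Y-linked genes Eif2s3y (mean level 2.24), Ddx3y (1.54) and Kdm5d (-2.01) were detected on all 5 arrays, while Uty was not detected and Xist, the transcript of the inactive X chromosome, was well above background on control 4 alone.

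The array read 27729 genes. Of these, 14435 (52.1%) were well above background on 5 of 5 control arrays with at least 1 probe, called detected below, and 8945 (32.3%) on 0 of 5. The median level over all genes was -3.12, and the brightest 10% of the genes (2773) began at a level of 2.62. Without control 1 the number detected on all remaining arrays was 14591. Each gene was read from its brightest probe. A rank orders probe signals, which depend on the probe as well as on the transcript, and is not an order of transcript amounts.

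The brightest signals were those of the protein-making machinery. Rn18s, the 18S ribosomal RNA, had rank 1 with levels of 10.59, 10.41, 10.67, 10.44 and 10.56 in controls 1 to 5. Of the 25 highest genes, 14 were ribosomal proteins or ribosome-associated, among them Rplp1 (mean 9.49), Rps18 (9.36), Rplp0 (9.25) and Rack1 (8.59), a scaffold protein that sits on the ribosome. These genes differed little between mice, with an SD of 0.07 for Rplp0 and 0.31 for Rps18, whose lowest array was control 3. Others in the group of 25 were the iron store Fth1 (9.20), the histone H3f3b (9.02), the actin-binding peptide Tmsb4x (8.81) and the MHC class I heavy chain H2-K1 (8.84). Lars2, the mitochondrial leucyl-tRNA synthetase, had rank 2 at 10.36. Ptprz1, a receptor phosphatase known from the nervous system, had rank 3 at 10.13, and Lrrc58 rank 8 at 9.34. These ranks rest on single probes, since the lowest of the 4 Ptprz1 probes averaged -6.68 and the lowest of the 4 Lrrc58 probes -2.63.

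Among the 25, Ccl5 was the highest gene of the NK lists. Ccl5, the chemokine RANTES, which memory T cells and NK cells hold in store, had levels of 9.14, 9.10, 8.89, 8.92 and 8.85 in controls 1 to 5, rank 18, with an SD of 0.13. Lyz2, the lysozyme of macrophages and granulocytes, followed at rank 19 with 8.62, 8.83, 9.10, 9.05 and 8.94, although a second Lyz2 probe averaged 3.25. Igh, a name that covers 6 probes of the immunoglobulin heavy chain locus, had rank 4 at 9.58 and was thus brighter than every NK gene. Its lowest probe averaged -3.12.

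Levels of 4 genes used as markers of NK cells are given array by array. Klrb1c, the NK1.1 antigen that defines NK cells in this strain (probe at chr6:128728603-128728662, mm9), had levels of 4.50, 4.96, 4.07, 3.99 and 3.92 in controls 1 to 5. Ncr1, the NKp46 receptor (chr7:4296176-4296235), had 1.97, 1.88, 1.24, 0.56 and 0.69. Gzma, granzyme A (chr13:113885986-113886045), had 6.90, 6.66, 6.02, 6.18 and 5.88, and Prf1, perforin (chr10:60766528-60766587), 5.97, 5.88, 5.62, 5.40 and 4.90. All 4 were detected on 5 of 5 arrays, as were 52.1% of all genes, so detection alone does not check the identity of the isolate. Each of the 4 was higher in controls 1 and 2 than in any of the other 3. This split was not particular to NK genes, here or below. Cytoskeleton and housekeeping genes, as the mean of their levels minus each gene's mean over the arrays, gave 0.09, 0.17, -0.11, -0.09 and -0.08 in controls 1 to 5. Other lists, such as B cell markers, had other orders. The share of all genes with this split was not counted. The spans between the highest and lowest array were 2.06-fold for Klrb1c, 2.66-fold for Ncr1, 2.02-fold for Gzma and 2.10-fold for Prf1.

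Across 9 lists 206 NK genes were grouped by function, of which 198 were matched on the array. Of these 198 genes 186 were detected on 5 of 5 arrays, 8 on none and 4 on some, and 108 stood in the brightest 10%. Of all genes 52.1% were detected on 5 of 5 arrays and 32.3% on none. The lists were made with results of these data known, so these counts describe the lists and are no test of the label. On 184 of the genes a spread between arrays could be given. Its median was an SD of 0.31, against 0.28 over all 14326 such genes, and 1 NK gene (Csf2) reached an SD of 1, which 1.31% of all genes did. The highest array was control 2 for 63 of the 184 genes (34.2%, against 29.2% of all genes) and control 1 for 54 (29.3%, against 18.8%), while the lowest was control 5 for 55 (29.9%, against 14.2%).

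**Figure D1:**
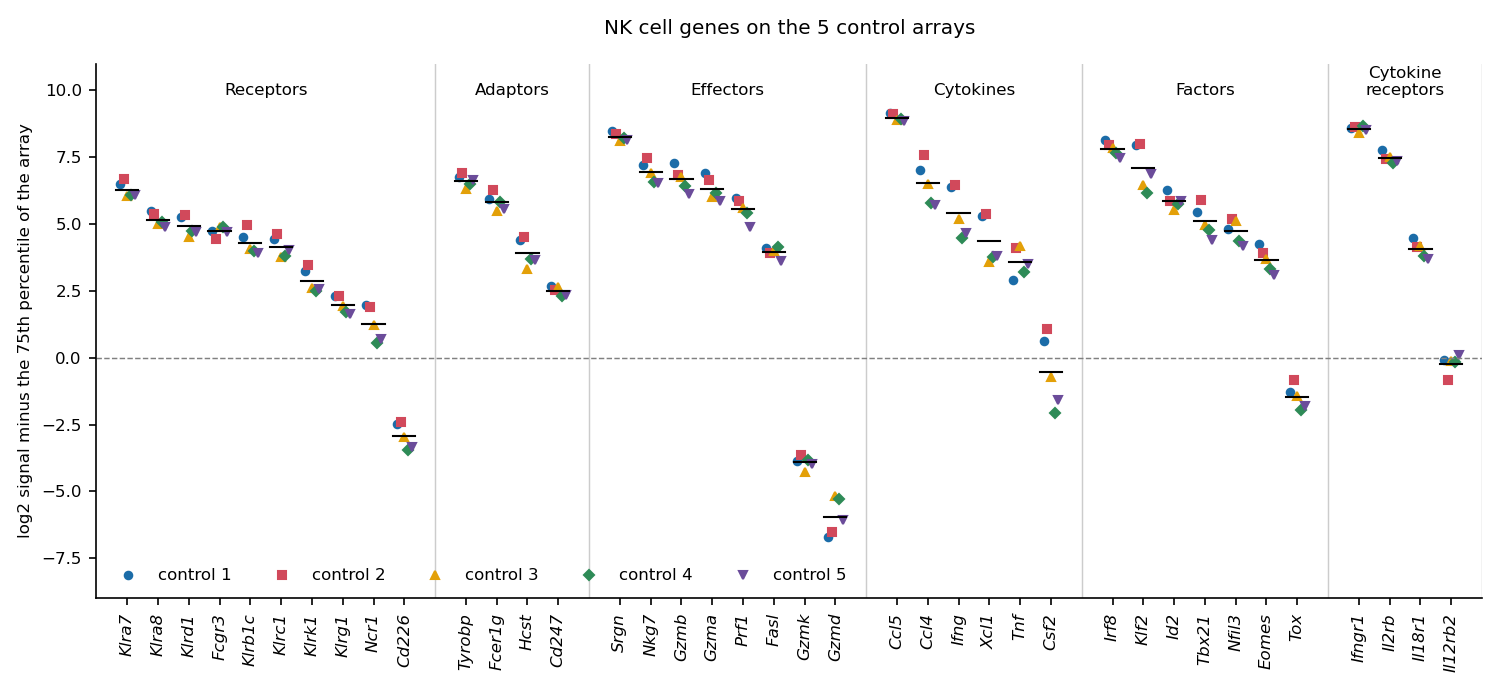
Levels of NK genes on the 5 control arrays (vertical axis: log2 signal minus the 75th percentile of the array), grouped by role. Points are single arrays, black bars the means, and the dashed line the 75th percentile. Granzymes B and A, Nkg7, Srgn and Ccl5 lie above 5 on every array, Gzmk and Gzmd below -3, and Ifng, Xcl1, Klf2 and Csf2 are spread most, with controls 1 and 2 at the top.

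Activating receptors and co-receptors were all detected, 19 of 19, and 10 stood in the brightest 10% (median level 2.64). The highest was Fcgr3 (4.73 ± 0.19, SD, n = 5), the CD16 receptor for antibody-coated targets, followed by Cd7 (4.34 ± 0.58), a surface protein of T and NK cells, and Klrb1c (4.29 ± 0.44). Cd244a, the 2B4 receptor for Cd48, had 3.69 ± 0.29 and its ligand Cd48 2.83 ± 0.26. Klrk1, the NKG2D receptor for stress-induced ligands, had levels of 3.25, 3.47, 2.61, 2.49 and 2.58 in controls 1 to 5. As with the NK1.1 gene, controls 1 and 2 were the high arrays. The Nkrp1 relatives of Klrb1c ranged from 3.53 for Klrb1b to 0.62 for Klrb1f. Tnfrsf9, the costimulatory receptor 4-1BB, was higher in control 1 (4.10) than in the other arrays (2.39 to 3.08), and Crtam, a receptor induced by activation, varied by an SD of 0.67. At the low end stood Slamf6 (-1.23), Cd226, the DNAM-1 receptor (-2.92), and Cd160 (-3.33), all still above background on 5 of 5 arrays.

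Ly49 receptors, the lectin-like receptors by which mouse NK cells read MHC class I, were detected for 17 of 18 genes, with 11 in the brightest 10% (median 3.15). Klra7, the inhibitory Ly49G, was highest with 6.48, 6.68, 6.04, 6.08 and 6.08 in controls 1 to 5. Klra8, the activating Ly49H that binds a cytomegalovirus protein, had 5.48, 5.37, 5.00, 5.07 and 4.90. For both, controls 1 and 2 lay above the other 3. Klra1 (Ly49A) averaged 4.58, Klra9 (Ly49I) 4.08, the activating Klra4 (Ly49D) 2.04 and Klra3 (Ly49C) 1.83. Klra2, Klra5 and Klra17, which code for Ly49B, Ly49E and Ly49Q, were dim at -0.97, -1.58 and -2.86, and Klra19 was not detected. Klra2 and Klra17, both known from myeloid cells, had other orders than Klra7 and Klra8: Klra2 was lowest in control 1 (-1.67) and highest in control 4 (-0.42), and Klra17 was lowest in control 2 (-3.56) and highest in control 5 (-2.27). Klra23 (5.63), Klra21 (5.22) and Klra16 (4.91) are names of Ly49 genes described in other mouse strains. Ly49 genes are near-identical in sequence, and whether their probes read other members was not tested, so the values are those of probes named for a gene.

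CD94, the NKG2 family and other inhibitory receptors formed the dimmest NK list, with a median of 1.16 and 4 of 18 genes in the brightest 10%, though 17 were detected. Klrd1, the CD94 chain that pairs with NKG2 proteins, had 5.26, 5.35, 4.52, 4.73 and 4.69 in controls 1 to 5. Klrc1, the inhibitory NKG2A, averaged 4.14 ± 0.38, far above the activating Klrc2 (-0.34 ± 0.29). Klrg1, a marker of mature NK cells, had 1.98 ± 0.33 and the inhibitory Cd96 1.53 ± 0.27. Havcr2, which codes for TIM-3, was steadier (3.59 ± 0.12), and of the checkpoint receptors Pdcd1 stood at 0.78, Btla at -1.07 and Lag3 at -1.43. Ctla4 was above background on 4 of 5 arrays, and not on control 2.

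Signalling adaptors and kinases were detected for 19 of 19 genes, 12 of them in the brightest 10% (median 3.14). Tyrobp, the DAP12 adaptor of activating Ly49 receptors, was bright at 6.62 ± 0.22 (rank 198). Fcer1g, the Fc receptor gamma chain that serves CD16 and NKp46, had 5.82 ± 0.31, Hcst, the DAP10 adaptor of NKG2D, 3.92 ± 0.51 and Cd247, the zeta chain, 2.50 ± 0.18. Tyrobp and Fcer1g are also expressed by myeloid cells. Of the kinases, Lck averaged 4.28, Syk 4.17 and Zap70 3.26. Syk was lowest in control 1 (3.76) and Lck was highest there (4.72). Both phosphatases of the list were bright, Inpp5d (SHIP1) at 4.06 and Ptpn6 (SHP-1) at 3.80. Sh2d1b1, the EAT-2 adaptor, was dim at -0.60.

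Cytotoxic effectors ranged widely, between some of the brightest NK genes and genes that were not detected. Srgn, the proteoglycan serglycin that packs granules, was highest (8.27 ± 0.15, rank 41), followed by the granule membrane protein Nkg7 (6.94 ± 0.40). Gzmb, granzyme B, had 7.27, 6.82, 6.76, 6.44 and 6.11 in controls 1 to 5, which puts control 1 highest and control 5 lowest, the same ends as for Gzma and Prf1. Ctsw, a cathepsin of cytotoxic cells, averaged 4.73, Fasl, the Fas ligand, 3.95, Ctsc, the cathepsin that activates granzymes, 2.89 and Gzmc 2.84. Gzmm (0.08) and Gzmk (-3.91) were much dimmer. Of 25 effectors 18 were detected and 12 stood in the brightest 10%, while Gzmd, Gzme, Gzmf, Gzmg, Gzmn and Raet1e were not detected on any array. The granzyme genes of that group lie together with Gzmb on chromosome 14, and Raet1e codes for an NKG2D ligand that target cells carry. Genes of granule release were of middling level, with Stx11 at 2.66, Unc13d at 2.20, Stxbp2 at 0.71 and Rab27a at -2.30. Tnfsf10, the death ligand TRAIL, was above background on 4 of 5 arrays.

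Cytokine and chemokine genes had the highest median SD of the NK lists, 0.34 (median level 2.37, 15 of 18 detected, 8 in the brightest 10%). Ifng, interferon gamma, had levels of 6.38, 6.45, 5.19, 4.48 and 4.65 in controls 1 to 5, a 3.91-fold span. Xcl1, the chemokine lymphotactin, had 5.30, 5.38, 3.58, 3.77 and 3.79, and Ccl4 had 7.01, 7.60, 6.51, 5.79 and 5.73. For these 3 genes the arrays of controls 1 and 2 were the highest. The first principal component, with 54.2% of the variance between arrays, separated the same arrays. The share of all genes with this split was not counted, so it is not a trait of cytokine genes alone. Csf2, the growth factor GM-CSF, had 0.61, 1.06, -0.71, -2.06 and -1.56, an 8.72-fold span and the largest SD of any NK gene (1.35). Tnf followed another order, with control 3 highest (4.18) and control 1 lowest (2.90), and so did Ltb, lymphotoxin beta, with control 1 lowest (5.04) and 5.68 in control 3. Il10 was dim and varied from -2.01 in control 1 to -0.26 in control 2. Il22 was above background on 4 of 5 arrays, Il2 on 2 and Ccl1 on none.

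All 22 transcription factors were detected and 15 stood in the brightest 10% (median 2.91). Irf8, an interferon regulatory factor also active in B and myeloid cells, was highest at 7.81 ± 0.26. Klf2, a regulator of lymphocyte trafficking and quiescence, had 7.95, 8.01, 6.45, 6.15 and 6.88 in controls 1 to 5, the largest SD of the list (0.85). Id2, the inhibitor of E proteins needed by all innate lymphocytes, averaged 5.86 ± 0.28. Tbx21, which codes for T-bet, had 5.47, 5.89, 4.95, 4.79 and 4.39, and Eomes 4.25, 3.92, 3.70, 3.33 and 3.09. Both were higher in controls 1 and 2 than in the other arrays, and lowest in control 5. Nfil3, required for NK development, had 4.72 ± 0.46, Ets1 3.84 ± 0.20, Zeb2 3.31 ± 0.38, Runx3 2.66 ± 0.36 and Gata3 2.58 ± 0.31. Zeb2 ran the other way from T-bet, with control 1 lowest (2.73) and control 3 highest (3.78). Bach2, a repressor of effector programmes, was lowest in control 2 (1.51) and highest in control 5 (3.51). Bcl11b (-0.32) and Tox (-1.46) were the dimmest of the list.

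Maturation and trafficking genes were all detected, 26 of 26, with 14 in the brightest 10% and a median level of 3.23. That was the highest of the NK lists when the brightest probe was read. By the mean of all probes it was 2.02, below the 3.52 of the Ly49 list. Both of these values have the shift of the median of all genes (-0.47) subtracted. They can be compared with each other, but not with the other levels given here. Spn, which codes for CD43, averaged 5.98 and Itga4 4.43, each over 4 arrays because control 2 had no usable spot. Itgb7 (5.84), Ly6c2 (5.67), Itgax (4.94), Itgal (4.92) and Itgb2 (4.91) were the next brightest, and several of these integrins are shared with myeloid cells. Of the markers used to stage NK cells, Cd27, high on immature cells, had 1.39, 1.81, 1.96, 2.50 and 2.20 in controls 1 to 5. Itgam, the CD11b of mature cells, had 0.93, 0.88, 1.93, 1.12 and 0.96, and S1pr5, which drives exit into blood, 1.54, 2.01, 1.43, 0.99 and 0.77. Cd27 was lowest in control 1 where S1pr5 was second highest, and Itgam stood out in control 3. Cxcr4 averaged 4.14, Thy1 3.88 and Kit 2.98. Itga2, which codes for the DX5 antigen, and Itga1, a mark of tissue-resident cells, were dim at -2.26 and -2.98. Ccr7, a homing receptor better known from T cells and dendritic cells, was bright at 4.63.

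Cytokine receptors and their Jak-Stat signalling were detected for 33 of 33 genes, 22 of them in the brightest 10%, and were the steadiest NK list (median SD 0.28, median level 2.92). Ifngr1, a chain of the interferon gamma receptor, was bright at 8.56 ± 0.10 (rank 26). Il2rb, the chain shared by the receptors for interleukins 2 and 15, had 7.79, 7.42, 7.53, 7.28 and 7.35 in controls 1 to 5, which is close on all arrays. Il2rg, its common gamma partner, averaged 2.92, Il15ra -0.53 and Il2ra -1.87. Stat3 stood at 7.24, Jak1 at 5.88, Stat4 at 4.40 and Stat5b at 4.27. Il18r1 (4.05) and Il18rap (3.42), both chains of the interleukin 18 receptor, were brighter than Il12rb1 and Il12rb2 (-0.22 each) of the interleukin 12 receptor. Il12rb1 was higher in control 2 (0.80) than on the other arrays (-0.70 to -0.22), while Il12rb2 was lowest there (-0.82).

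Signals of genes listed as markers of other spleen cells were present on every array. Across 11 lists of markers 178 genes were matched, of which 147 were detected on 5 of 5 arrays and 11 on none. Of all genes 52.1% were detected on 5 of 5 arrays and 32.3% on none. Not every member is confined to its cell type (Cd83, below), so a detected member is not by itself a trace of those cells. In RNA from a bulk isolate, fewer cells of a type and less RNA per cell cannot be told apart, and none of these levels gives a share of cells. For each list the level on an array is given below as the mean over its genes of the level minus the gene's mean over the 5 arrays, and as the sum of the signals in units of the 75th percentile.

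Phagocyte lists had some of the brightest single genes and the largest sums, up to 662 for macrophages and monocytes, though the median level of that list was -1.08. Besides Lyz2, the neutrophil alarmin S100a9 had levels of 8.17, 7.67, 6.86, 6.94 and 7.94 in controls 1 to 5. Its partner S100a8 averaged 3.87, the chitinase-like Chil3 6.15, myeloperoxidase (Mpo) 5.40 and Retnlg 5.20. The summed neutrophil signal ran from 281 in control 3 to 543 in control 1, a ratio of 1.93, and 17 of 18 markers were detected, Olfm4 being absent. Within the list the arrays were not ordered alike: Retnlg was lowest in control 1 (4.57), where Mpo was highest (6.18). Of macrophage and monocyte markers 18 of 21 were detected, led after Lyz2 by Cd14 (5.64), Csf1r (4.06), Adgre1 (3.89), which codes for F4/80, and Spic (3.01), the factor of red pulp macrophages. By its mean shift this list was lowest in control 1 (-0.50) and highest in control 5 (0.64). Its summed signal, which the brightest genes set, was also lowest in control 1 (478) but higher in controls 3 (661) and 4 (662) than in control 5 (619). Adgre1 had 3.17, 3.80, 4.33, 4.17 and 3.99 in controls 1 to 5, and Slc40a1, the iron exporter ferroportin, -2.36, -1.53, -1.22, -0.33 and -0.25. Both were lowest in control 1, and Clec4f, a Kupffer cell marker, was not detected.

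MHC class II and dendritic cell genes were bright and nearly equal on the 5 arrays. H2-Ab1 had 7.16, 6.84, 7.21, 7.27 and 7.08 in controls 1 to 5, and Cd74, the invariant chain, averaged 6.91 ± 0.18. The summed signal of the list lay between 425 and 488, a ratio of 1.15, which was the narrowest of the lists of other cells. Within it the plasmacytoid marker Siglech was dim (-1.97) and highest in control 3 (-0.99), and Zbtb46, a factor of conventional dendritic cells, ran between 1.78 in control 1 and 0.41 in control 5.

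B cell markers were detected for 18 of 19 genes, with Ighm (6.06), Blnk (4.52), Cd79b (3.70), Ms4a1 (2.86) and Pou2af1 (2.80) the brightest. Cd79b, a chain of the B cell receptor, had 3.57, 3.32, 3.01, 3.92 and 4.66 in controls 1 to 5. Control 5 was the highest array and control 3 the lowest, as for the list as a whole (0.65 and -0.63), whose summed signal spanned 2.01-fold. Plasma cell genes differed in their order, with control 1 highest (0.56). Jchain, the joining chain of secreted antibodies, had 7.06, 5.60, 6.29, 5.84 and 6.47. The summed plasma cell signal ran from 62.4 in control 2 to 154 in control 1.

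T cell markers were much dimmer. Icos (2.94), Lef1 (1.97) and Cd3d (1.69) were the brightest of 16, of which 13 were detected. Cd3e (-2.13) and Cd4 (-2.70) were dim, and Themis, Foxp3 and Cd40lg were not detected. Cd8b1, the beta chain of CD8, had 0.31, -0.58, -1.33, 0.99 and 1.62 in controls 1 to 5, a 7.72-fold span. It was 1 of 5 markers that reached an SD of 1, of 145 markers of other cells with a measured spread, against 1.31% of all genes. The list as a whole was highest in control 5 (0.53) and lowest in control 3 (-0.42), the same ends as the B cell list. NK effector genes were lowest in control 5 (-0.29), where the mean shifts of B cell, T cell and macrophage markers were highest. The summed macrophage signal was not highest there. The part of these markers in the effector levels was not tested.

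Erythroid, platelet and basophil genes showed other orders. Hbb-bt, a beta globin, had 1.05, 2.03, -0.43, 1.38 and 3.62 in controls 1 to 5, and Hba-a1, an alpha globin, 0.65, 1.44, -0.17, 0.88 and 2.58, so both globins were highest in control 5 and lowest in control 3. Without control 5 the SD of Hba-a1 was 0.67, against 1.02 with it. Klf1, the erythroid transcription factor, had -3.06, -1.30, -2.23, -4.26 and -3.13, and Car1, a carbonic anhydrase of erythroid precursors, 2.90, 3.59, 2.38, 1.28 and 1.60. These were highest in control 2 and lowest in control 4, so genes of red cells and of their precursors were not ordered alike. Platelet markers were detected for 15 of 15 genes, led by Itgb3 (3.99), Ppbp (3.48) and Pf4 (3.43), and the list was higher in controls 1 and 2 (0.37 and 0.34) than in control 5 (-0.49). Basophil and mast cell markers included Hdc, histidine decarboxylase, with 5.85 in control 1, 5.24 in control 5 and 6.58 to 6.59 in controls 2 and 4, and its highest level, 7.001, in control 3. Prss34 (1.71) and Mcpt8 (0.48), proteases of basophils, were detected, whereas the mast cell genes Tpsab1 and Mrgprb2 were not. Of 18 stromal and endothelial markers 9 were detected, Acta2 alone being bright (5.12), and Cdh5, Lum and Cxcl13 were not detected. Cd83 (7.07), kept in the list of innate lymphoid cells, is an activation marker of many leukocytes, and Il5 of that list was above background on 4 of 5 arrays.

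**Figure D2:**
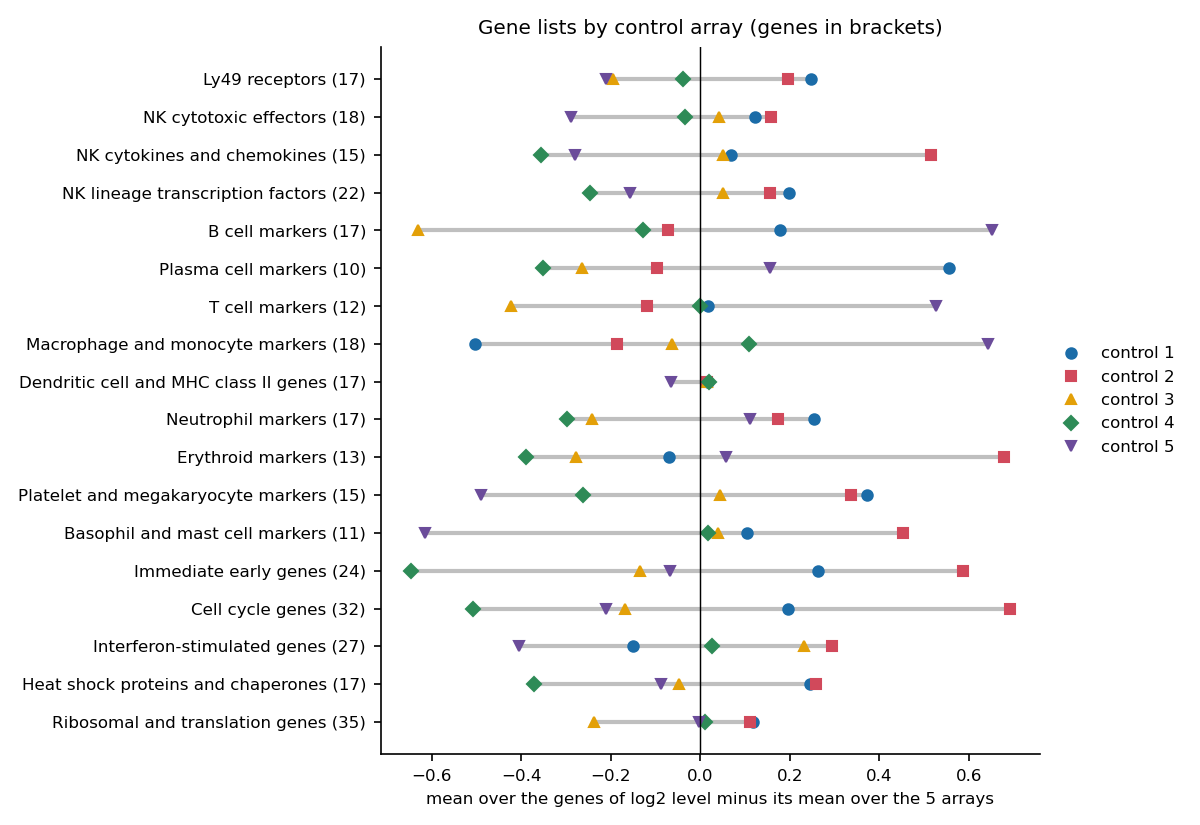
Gene lists on the 5 control arrays. The horizontal axis is the mean over the genes of a list of the log2 level minus the gene's mean over the 5 arrays, points are arrays, bars join the lowest and highest array, and the number of genes is in brackets. B cell, T cell and macrophage markers are highest in control 5, immediate early and cell cycle genes are highest in control 2 and lowest in control 4, and the MHC class II list hardly differs between arrays.

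Immediate early genes, switched on within minutes of stimulation or of handling, were bright: 24 of 24 were detected and 19 stood in the brightest 10% (median level 4.89). Nfkbia, the inhibitor of NF-kB, averaged 8.40 (rank 30), Junb 8.30 and the orphan receptor Nr4a1 7.93. Jund had 7.79, 8.38, 6.99, 6.34 and 6.76 in controls 1 to 5, and Egr1 4.01, 4.33, 3.79, 1.83 and 4.47. The list was highest in control 2 (0.59) and lowest in control 4 (-0.65), and its summed signal ran from 1187 in control 4 to 2558 in control 2. Fosb and Egr1 reached an SD of 1, and without control 4 the SD of Egr1 was 0.31. Among heat shock genes Hspa1a, the inducible HSP70, had 3.81, 3.59, 2.78, 1.25 and 2.86, again lowest in control 4, without which its SD was 0.52 and not 1.00. Cell cycle genes had the same ends, 0.69 in control 2 and -0.51 in control 4. The brightest members of that list were the replication genes Mcm6 (5.69) and Pcna (4.54), together with Stmn1 (4.68). The mitotic kinase Aurkb (-2.72) was dim but detected. Interferon-stimulated genes were of modest level (median 0.94), with 5 of 28 in the brightest 10%. Cxcl10, a chemokine that interferon induces, had 3.23, 4.34, 4.17, 2.38 and 2.23. The NK cytokine list was also highest in control 2 (0.52) and lowest in control 4 (-0.36), and the part of stimulation or handling in that order was not tested. Ribosomal genes were the steadiest of the state lists (median SD 0.19) and were lowest in control 3 (-0.24).

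Between the 5 arrays the median SD of a gene was 0.28, and it ranged from 0.14 at the 10th to 0.58 at the 90th percentile over 14326 genes. It was larger for dim genes, being 0.37 for genes between -3 and -1 and 0.23 between 1 and 3. Spots of 1 probe on an array differed by less than that. For 153 probes printed 10 times on the array and well above background, the median SD between spots of an array was 0.0753, against 0.295 between arrays, and the SD between arrays was the larger in 92.2%. The least variable genes of the brightest 10% were Baz2a (4.34), a chromatin remodelling subunit, the adhesion protein Ctnna1 (4.11), the actin cappers and regulators Capzb (5.68) and Abi1 (4.07), Sugp1 (3.85), Snx1 (4.66), Copb2 (3.25), Ccdc12 (4.36), Rpl11 (8.27) and the gene listed as COX2 (8.50). Their SD lay between 0.02 and 0.05.

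An SD of at least 1, a threshold chosen for this description, was reached by 188 genes (1.31%). That number rests in part on control 2, since 97 genes reached it without that array and 230 without control 1. Of the 188 genes 133 were lowest in control 2 (70.7%, against 21.7% of all genes) and 100 were highest in control 3 (53.2%, against 16.6%). Genes named in the file alone, mostly transcripts without a current symbol, reached it in 82 of 2323 cases (3.53%), and genes named through an accession in 79 of 10469 (0.755%). For 19 of the 188 a second probe of the gene was measurable on all arrays, and 5 of these also had an SD of 1 or more.

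**Figure D3:**
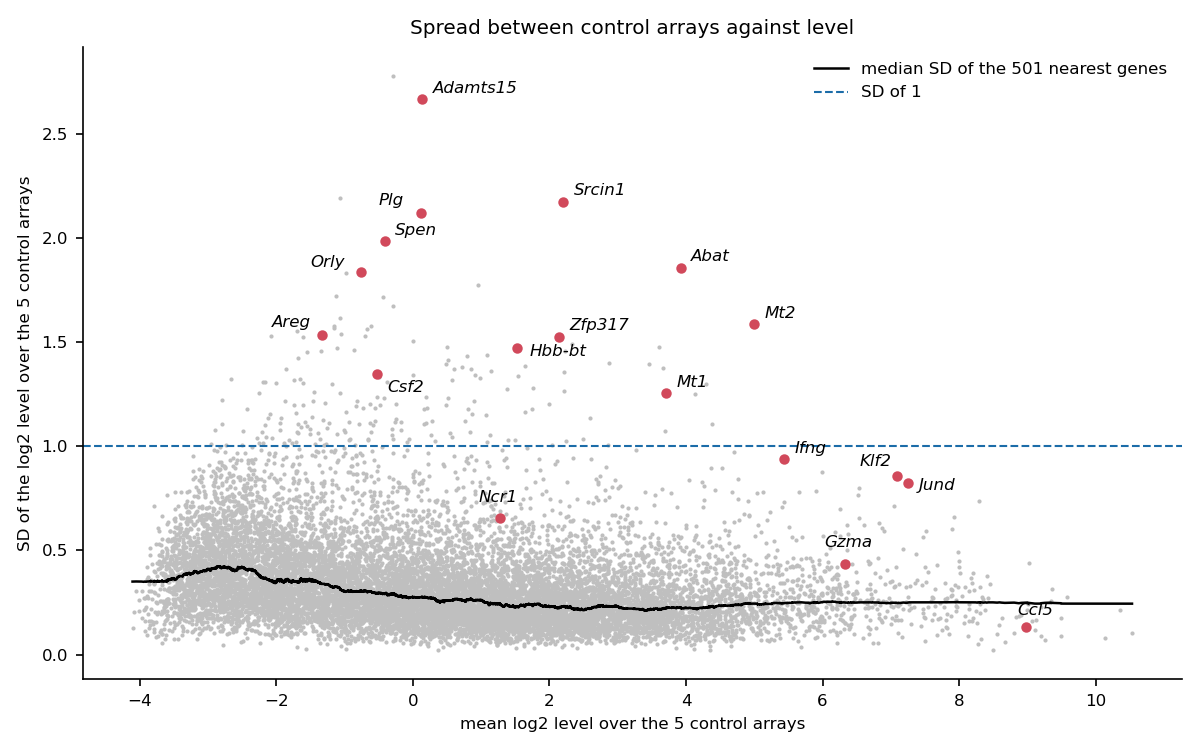
Spread between the control arrays (vertical axis: SD of the log2 level) against mean level (horizontal axis) for 14326 genes above background on all 5 arrays. The black line is the running median of the SD, the dashed line an SD of 1, and red points are named genes. Mt2, Mt1, Abat and Srcin1 stand far above genes of like level, while Ccl5 and Gzma lie below the dashed line.

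Among the most variable genes were metallothioneins, small cysteine-rich proteins that bind zinc and copper and rise with metals, glucocorticoids and stress. Mt2 had levels of 7.21, 5.97, 4.11, 3.22 and 4.49 in controls 1 to 5, a 15.9-fold span, and Mt1 5.67, 3.98, 2.59, 2.64 and 3.69, an 8.45-fold span. Control 1 was highest for both, and the next were controls 2 and 5 for Mt2 and for Mt1. The neutrophil marker list had the same order at its top, with 0.25 in control 1, 0.17 in control 2 and 0.11 in control 5, and its part in the metallothionein levels was not tested. The other members were steady: Mt3 averaged 0.85 ± 0.17, Mt4 -2.10 ± 0.09, the zinc exporter Slc30a1 1.38 ± 0.22 and the metal-sensing factor Mtf1 0.76 ± 0.25. Without control 1, which the authors' deposited table replaced, the SD of Mt1 was 0.72, against 1.26 with it, and that of Mt2 1.14, against 1.58. Mt1 and Mt2 lie side by side on chromosome 8. Their promoters are shown because the pair moved together, from 250 bases before to 30 after the annotated start. Both are on the plus strand (RefSeq, GRCm38.p6), Mt1 at chr8:94178839-94179118 and Mt2 at chr8:94172368-94172647. Capitals mark matches to TGCNCNC on either strand. That pattern is looser than the core of the metal response element, TGCRCNC, where R is A or G.
Mt1: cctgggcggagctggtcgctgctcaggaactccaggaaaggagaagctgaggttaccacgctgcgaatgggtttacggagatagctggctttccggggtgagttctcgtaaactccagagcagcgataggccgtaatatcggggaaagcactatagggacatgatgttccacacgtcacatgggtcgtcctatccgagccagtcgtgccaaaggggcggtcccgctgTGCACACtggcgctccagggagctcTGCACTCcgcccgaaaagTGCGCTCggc
Mt2: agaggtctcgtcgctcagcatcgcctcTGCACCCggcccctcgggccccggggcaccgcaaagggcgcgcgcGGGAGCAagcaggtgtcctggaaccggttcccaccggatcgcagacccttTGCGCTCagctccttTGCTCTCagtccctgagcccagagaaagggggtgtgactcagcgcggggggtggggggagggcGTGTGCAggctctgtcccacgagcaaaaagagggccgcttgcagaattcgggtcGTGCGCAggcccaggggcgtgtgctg
Mt1 held 3 matches and Mt2 held 6. In Mt2 the matches TGCTCTC and GGGAGCA do not meet the stricter core, while those of Mt1 do. All but the first match of Mt1, and the last of Mt2, lay after the annotated start. Of 32851 mouse promoters of the same length 6.11% held 3 or more and 0.155% held 6 or more, by the same looser pattern. A match is a match of letters, not a bound site, and matches outside the printed bases were not counted. The part of metals in the Mt1 and Mt2 levels was not tested.

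Other variable genes belong to the immune response or to red cells. Areg, amphiregulin, a growth factor of the EGF family made by innate lymphoid cells and basophils, had -0.42, 0.85, -1.75, -2.81 and -2.55 in controls 1 to 5, a 12.6-fold span, in the same order as Csf2, with control 2 highest and control 4 lowest. The basophil protease Prss34 had the same order, with 2.45, 2.47, 1.51, 1.0001 and 1.13, and the list of basophil and mast cell markers was also highest in control 2 (0.45), though lowest in control 5 (-0.61). Their part in the Areg levels was not tested. The gene listed as Eraf, the alpha-hemoglobin stabilizing protein, had -0.82, 1.11, -1.15, -3.23 and -1.65, the order of Klf1 at its ends.

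Another pattern at the top was low in controls 1 and 2 and highest in control 3. Adamts15, a secreted metalloprotease, had levels of -2.33, -2.53, 3.92, 0.57 and 1.06 in controls 1 to 5, an 87.0-fold span. Srcin1, an inhibitor of Src known from neurons, had 0.29, -0.24, 5.04, 2.75 and 3.15. Plg, which codes for the plasma protein plasminogen, had -1.80, -2.01, 3.16, 0.53 and 0.68, and Abat, the GABA transaminase, 2.31, 1.71, 5.78, 4.22 and 5.59. Zfp317, a zinc finger protein, had 0.84, 0.34, 4.07, 2.55 and 2.86. In each of the 5 genes control 3 was the highest array and control 2 the lowest. Several of the probes held pieces of the repeat TTAGGG, the repeat of mammalian telomeres, which was looked for after these sequences had been seen. Of the 228 probes with an SD of at least 1 (1.09% of 20929 measured probes) 14 held TTAGGG (6.14%), against 206 of all measured probes (0.984%), and 0 held its reverse complement CCCTAA, which 207 measured probes held.

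The spread rose with the length of the run. Of 20692 probes whose longest run of the TTAGGG repeat, in any phase, was under 7 bases, 1.01% had an SD of at least 1. The share was 3.23% of 186 probes with a run of 7, 8.33% of 36 with 8, 33.3% of 6 with 9 and 77.8% of 9 (7 probes) with 10 or more. The last 9 had a median SD of 1.47, and 7 of them were highest in control 3. Most of the probes with an SD of at least 1, 210 of 228, nevertheless had a run under 7. The Srcin1 probe (SD 2.17), which shared the peak in control 3, was among them, and the Plg probe (SD 2.12) had a run of only 7. For the reverse complement, 0 of 7 probes with 10 or more bases, 0 of 10 with 9 and 0 of 42 with 8 had an SD of at least 1. Stretches of 30 bases are printed to show the run, in capitals, in the probes with a TTAGGG run of 10 or more whose gene has a current symbol, in that of Adamts15, and in 4 examples of the reverse complement, read 5′ to 3′ on the probe (mm9, coordinates of the whole probe).
Zfp317 (run of 14, chr9:19453464-19453523, plus strand): ttcttgacctttttaTTAGGGTTAGGGTTc
Nr1d2 (run of 11, chr14:19037253-19037312, minus strand): gatgctttaGTTAGGGTTAGtatatacatg
Abat (run of 10, chr16:8619816-8619875, minus strand): gcctgtctgaAGGGTTAGGGggtctgctca
Slc35b4 (run of 10, chr6:34106347-34106406, minus strand): ctaactggaccGGTTAGGGTTtcagaatgt
Slc38a5 (run of 10, chrX:7857226-7857285, plus strand): agatgaagctGTTAGGGTTAccctggcgct
Ubr1 (run of 10, chr2:120727082-120727141, minus strand): ctaaatatgtTTAGGGTTAGagtatagcgt
Adamts15 (run of 9, chr9:30707033-30707092, minus strand): gtaagactttGGGTTAGGGatcccctagtc
Nfya (reverse complement, run of 11, chr17:48526686-48526745, minus strand): gtttgtacaTAACCCTAACCtcgtaggcaa
Rpl14 (reverse complement, run of 10, chr9:120483689-120483748, plus strand): acagtgtcgtTAACCCTAACaaataaattt
Trim68 (reverse complement, run of 10, chr7:109826347-109826406, minus strand): ctaccaaacaAACCCTAACCtccaggctag
Tfpi (reverse complement, run of 10, chr2:84281022-84281081, minus strand): tggTAACCCTAACtcactttaggtttatag
Nr1d2, a clock repressor, had 1.04, 1.24, 4.04, 1.63 and 1.98 in controls 1 to 5, and Slc35b4, a nucleotide sugar transporter, -1.08, -1.31, 2.48, -0.01 and -0.08. Both shared the peak in control 3, without which the SD of Nr1d2 was 0.42 and that of Slc35b4 0.67. Slc38a5, an amino acid transporter of erythroid precursors, differed, with 0.11, 1.49, -0.34, -1.90 and -1.25 and its peak in control 2, where Klf1 peaked too. The Ubr1 probe, 1 of several for a ubiquitin ligase and not its brightest, had its highest level in control 3 (-0.20) but an SD of 0.50. The 4 probes of the reverse orientation had an SD of 0.30 for Nfya, 0.31 for Rpl14, 0.11 for Trim68 and 0.22 for Tfpi. Where in these genes the probes lie, in exon, intron or UTR, was not analysed here, and the cause of the pattern was not tested.

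**Figure D4:**
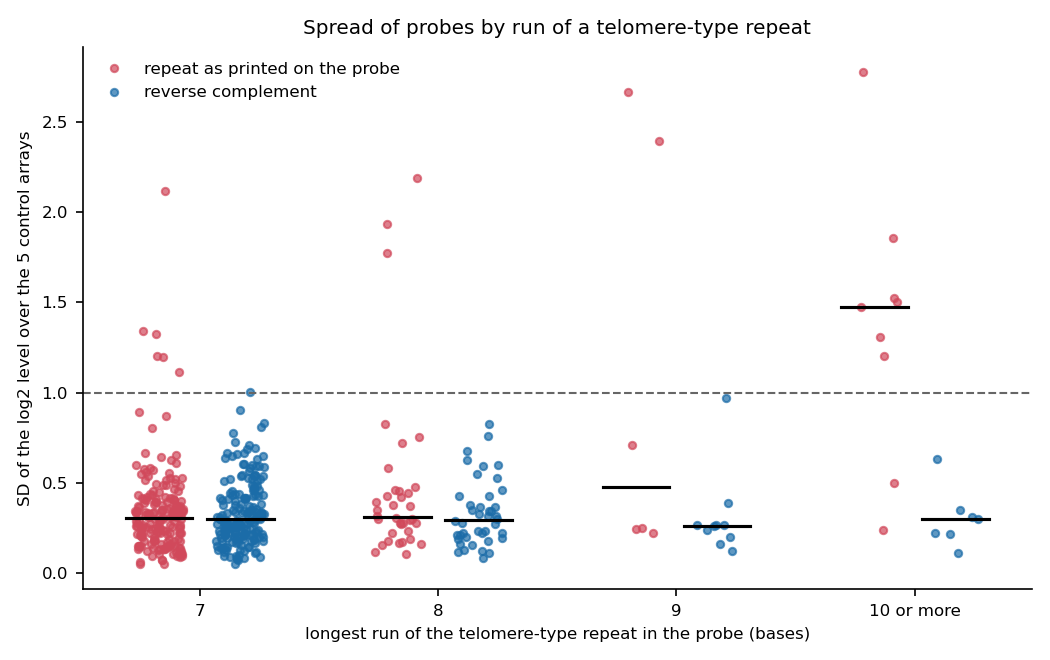
SD of probes between the 5 control arrays (vertical axis) by the longest run of a telomere-type repeat in the probe (horizontal axis, bases). Red points hold the repeat as TTAGGG, blue points its reverse complement, black bars are medians and the dashed line marks an SD of 1. The red median is 1.47 at 10 or more bases, against 0.30 for the blue.

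A second pattern among the most variable genes was a low value in control 2. Spen, a transcriptional corepressor, had 0.04, -3.93, 0.45, 0.65 and 0.72 in controls 1 to 5, and Bcas3 -0.37, -3.97, -0.61, -0.52 and -0.33. Their 4 other values lay within 1 unit, and without control 2 the SD was 0.31 for Spen and 0.13 for Bcas3. Orly, a gene of the long arm of the mouse Y chromosome that is present in many copies, had -1.34, -3.75, 0.52, 0.50 and 0.25, and its relative Sly -2.13, -3.48, -0.65, -0.77 and -1.03. These Y-linked genes were also lower in control 1 than in controls 3, 4 and 5. Without control 2 their SD was 0.89 and 0.68. The control 2 values of Spen, Bcas3 and Orly lay near the detection floor of that array. Its weakest signal well above background was 5.85 scanner units, with the 75th percentile at 116. The size of these drops is therefore uncertain. Of 7 measured probes on parts of Y without a fixed place in mm9, 6 had an SD of at least 1, 6 were lowest in control 2 and the median SD was 1.46. None of the 7 reached that SD without control 2. None of the 6 probes on the placed part of Y did with it, where Ddx3y, Eif2s3y and Kdm5d lie, and their median SD was 0.238. Probes that shared a stretch of 20 bases with 2 to 8 other probes had an SD of at least 1 in 10.8% of 130 cases and were lowest in control 2 in 57.7%, against 0.956% and 24.4% of the 20086 probes that shared none. With 1 other probe the shares were 3.13% and 22.9% of 703 probes. Of 10 probes sharing it with 9 or more, 0 had that SD, and 8 were lowest in control 2. The class of Y probes was also picked after the values were seen.

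Arrays of the other groups on the same slides did not enter the choice of variable genes and were set beside the controls. For each slide the mean deviation of its other arrays, each from the mean of its own group, was taken, without ptaquiloside mouse 4, whose 75th percentile was 10.5 scanner units and which stands apart. Of the 188 variable genes, 130 deviated to the same side as the control array on 5 of 5 slides (69.1%, against 20.6% of all genes). With ptaquiloside mouse 4 included the number was 114 (60.6%, against 13.9%). The variable genes are not independent of each other, so these shares are a description. Orly, Gm20747 and Gm20815, for example, had nearly the same deviations, and a shared signal is counted more than once. The slide of the highest control was also the highest in the other groups for 28.7% of the variable genes and 44.1% of all genes.

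Mt2 deviated by 2.21, 0.97, -0.89, -1.78 and -0.51 in controls 1 to 5, and the other arrays of slides 1 to 5 by 1.83, -0.08, -0.56, -0.99 and -0.53. For Csf2 the controls gave 1.14, 1.60, -0.18, -1.53 and -1.03, and their slide mates 0.76, 1.29, -0.71, -0.97 and -0.69. For Ifng the controls gave 0.95, 1.02, -0.24, -0.95 and -0.78, and the slide mates 0.43, 0.87, -0.41, -0.66 and -0.46. Slides 1 and 2 were the high ones for both cytokine genes, in the controls and in the mean of the other groups. Adamts15 deviated by -2.46, -2.66, 3.78, 0.43 and 0.92 in the controls, and by -1.79, -0.40, 1.03, 1.73 and -0.0017 in the slide mates, whose peak was on slide 4. Orly had -0.57, -2.99, 1.28, 1.26 and 1.01 in the controls, and -1.67, -1.003, 0.86, 1.43 and 0.86 beside them, where slide 1 and not slide 2 was lowest. Spen was low on slide 2 in both, at -3.52 in the control and -1.24 beside it. Some variable genes did not share the order of their slide mates. Cd8b1 deviated by 0.11, -0.79, -1.53, 0.79 and 1.42 in the controls, against 0.15, 0.33, 0.93, -1.40 and -0.47 in the slide mates. Hbb-bt had -0.48, 0.50, -1.96, -0.15 and 2.09 in the controls, against 0.62, -0.12, 0.77, -1.01 and -0.59. For these the control of slide 3 was lowest where its slide mates were highest, and the B cell list did likewise, at -0.63 in control 3 and 0.70 beside it. A slide joined mice with the same number, so shared isolation, labelling or hybridisation of a set of mice cannot be told apart from the slide.

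**Figure D5:**
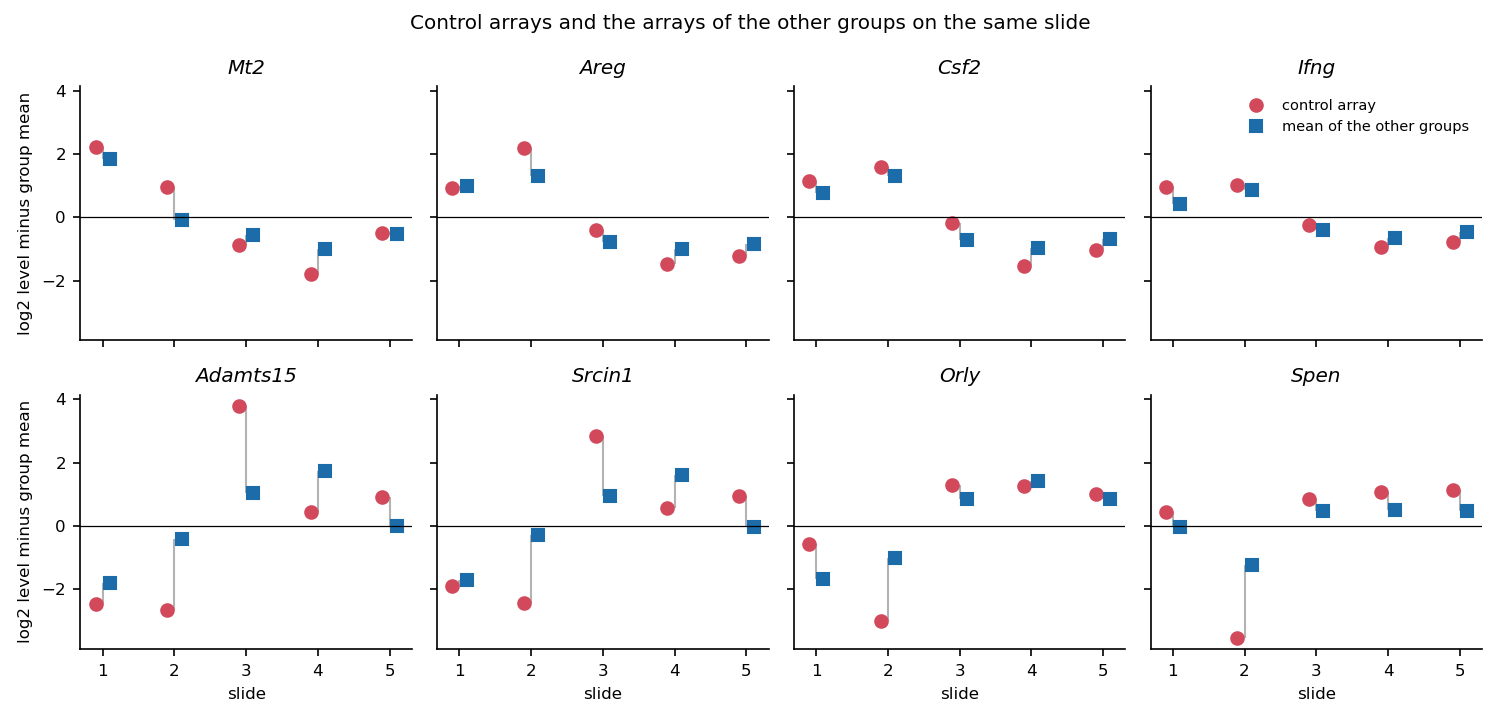
Deviation of each control array from the control mean (red circles) and mean deviation of the other arrays of the same slide from their own group means (blue squares, without ptaquiloside mouse 4), on the log2 scale, for 8 variable genes by slide. Mt2, Areg, Csf2 and Ifng are positive on slide 1 in both series, and Adamts15, Srcin1 and Orly are negative there. The 2 series fall on the same side of 0 on slides 3 to 5 for Mt2, Areg, Csf2, Ifng, Orly and Spen.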

How the data were processed

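Only the scanner files of the 5 control arrays were described, and those of the other 15 arrays were used as slide mates. The deposited scanner files hold, per the file headers, one green channel with the processed signal, an intensity already corrected for background by Agilent Feature Extraction (version 9.5.3.1 per the submitters' processing notes), together with flags for outliers, saturation and signals well above background, units listed as other in the deposited files. The intensity was taken to log2, and the 75th percentile over the non-control spots of the array was subtracted. Outlier spots were left out, and spots of a probe were averaged on the log2 scale. No spot of the control arrays was marked saturated, and 1 spot of ptaquiloside mouse 5 was. Probes (41174) were named through an accession (25097), a symbol (6333), a synonym (1640) or the file's own name (8104), which gave 27729 genes. Of these 18843 had 1 probe, and for the 8886 with several the probe with the highest mean level was reported. The authors' deposited table of processed values was not used.

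The 31 gene lists, the members and the rules were chosen with earlier results of these data known, and 18 of 615 list entries were not matched on the array and are not analysed here. Named genes are the 25 with the highest mean level, the 25 with the largest SD among those well above background on all arrays, the 10 with the smallest SD in the brightest 10%, the NK lists, and up to 6 high and 4 variable genes of each other list, with identifiers that lack an annotation counted and not described. Genes outside this rule, and the probe classes with a repeat run or on the Y chromosome, were chosen after their values were seen. The calculation of levels and SDs was tested on simulated data. Python 3.11.15, pandas 2.3.3, numpy 2.4.6 and matplotlib 3.10.9 were used, and R 4.3.3 with limma 3.58.1 for the normexp alternative (offset 50). The number of arrays limits the precision. The alternatives were other scalings, normexp, the mean of all probes of a gene, the filter on dim genes and leaving out each array. Results for some list members are not reported here.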

Additional observations from a re-analysis of the deposited data

Results flagged for a closer look

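For each named gene and each list, the gap between the most distant array and its nearest neighbour was divided by the range of the 5 arrays. A ratio above 0.71, the limit for 5 arrays, was reached by 9 of 207 named genes and 1 list. Chance alone gives such a gap in about 1 in 20 groups, and over all genes it was reached by 754 of 14326 (5.26%), most often through control 2 (291 genes) and least often through control 5 (40). Control 2 was the low array for Bcas3 (-3.97, others -0.61 to -0.33, ratio 0.922), Spen (-3.93, others 0.04 to 0.72, ratio 0.853) and Il12rb2 (-0.82, others -0.16 to 0.10, ratio 0.718), and the high one for Mt3 (1.14, others 0.73 to 0.85, ratio 0.714).

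Control 1 was high for Havcr2 (3.79, others 3.52 to 3.59, ratio 0.733) and for Stat3 (7.72, others 7.02 to 7.20, ratio 0.738). Control 3 was high for Itgam (1.93, others 0.88 to 1.12, ratio 0.771). Control 4 was low for Egr1 (1.83, others 3.79 to 4.47, ratio 0.743), and control 5 was high for Bcl11b (0.41, others -0.61 to -0.39, ratio 0.781). The mean shift of the dendritic cell and MHC class II genes was lower in control 5 (-0.07) than in the other 4 arrays (0.01 to 0.02, ratio 0.945), a small difference on a list whose arrays hardly differ.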

How the results depend on the processing

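No paired analysis was possible because the results come from no test and each slide held 1 control array. The alternatives moved the median level of all genes by 3.17 (scaling to the median), 2.09 (normexp), -0.47 (mean of all probes) and 0.0070 (quantile), and levels below are relative to that shift. The 188 variable genes became 31 with normexp, 1929 with the filter at 1 of 5 arrays and 2055 with no filter, and leaving out 1 array gave 97 to 250, the lowest without control 2. The 25 highest genes shared 12 with those by the mean of all probes, and 24 to 25 when an array was left out. Median levels with normexp were -0.14 for activating receptors, 0.36 for Ly49, -1.23 for CD94 and inhibitory receptors, 0.25 for adaptors, -0.46 for effectors, -0.39 for cytokines, 0.20 for transcription factors, 0.37 for maturation and 0.15 for cytokine receptors. With the mean of all probes they were 1.73 for activating receptors, 3.52 for Ly49, 0.50 for CD94 and inhibitory receptors, 2.67 for effectors, 2.02 for maturation and 2.09 for cytokine receptors. Leaving out 1 array gave 2.58 to 2.73, 3.08 to 3.24, 1.06 to 1.24, 3.11 to 3.22, 2.14 to 2.33, 2.32 to 2.43, 2.88 to 3.05, 3.15 to 3.29 and 2.86 to 2.98 for the 9 lists in the order given first. Detected genes numbered 14478 to 15060, and 14396 by the reported probe alone, and the median SD was 0.26 to 0.29. For the classes chosen after seeing the data, the repeat probes with an SD of at least 1 numbered 5 to 7, and those on unplaced Y 0 to 6, with 0 under normexp and without control 2. Among 234 named genes the level moved by more than 1 SD in 217 with normexp and 151 with the mean of all probes. Each of these moves includes the subtracted shift (2.09 with normexp), so their number does not tell how stable the levels are. The SD moved by over 1.5 times in 108 with normexp and 37 with the mean of all probes, as it did in 102 with scaling to the median and 42 with quantile normalization. The causes were not tested. Signal over background limits the dim genes, whose median SDs were the largest.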
